A study of Mus musculus with 2 samples.

Results

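The genes described here are 7 transcription factors of mesenchymal cells (Snai1, Snai2, Twist1, Twist2, Zeb1, Zeb2 and Prrx1), the cadherins Cdh1 and Cdh2, and the intermediate filament gene Vim. They were chosen by symbol and make up 10 of the 34097 genes listed in both libraries. Single cells of 2 mouse tumours were profiled with 10x droplets, in which each captured RNA molecule carries a unique molecular identifier (UMI) that is counted once. Both tumours are labelled as lung cancer xenografts of LLC, the Lewis lung carcinoma line. One is the control, and the other carried a short hairpin RNA against Gfpt2, an enzyme of hexosamine synthesis. The host strain, age and sex, the hairpin sequence, the control vector and the clonality of the cells are not given in the sources used here. Each group had 1 library, so no test was run and no difference could be set against a spread between tumours. The intervals below are 95% exact Poisson intervals for levels and exact Clopper-Pearson intervals for shares of cells, and both cover counting error only.

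In an epithelial cell, E-cadherin (Cdh1) joins neighbouring cells at adherens junctions. Factors of the SNAIL, TWIST and ZEB families repress Cdh1 and other epithelial genes during epithelial to mesenchymal transition (EMT), in development and in carcinomas, while N-cadherin (Cdh2) and vimentin (Vim) mark the mesenchymal state. PRRX1 is a homeodomain factor of mesenchymal lineages. SNAIL and ZEB factors are zinc finger proteins that bind the E-box CAGGTG, and TWIST factors are basic helix-loop-helix proteins that bind E-boxes of the general form CANNTG. Zeb2 is also expressed in macrophages and other leukocytes, so tumour and immune cells are described separately.

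Promoters of 2 genes are shown because, by point value, Snai1 was lower and Twist1 higher in the knockdown library in 9 of 9 tumour-like clusters, with ranges that exclude 0 in 6 and 5 of them. Each line gives the 250 bases before the RefSeq transcription start in GRCm38.p6, 5′ to 3′ on the strand of the gene, with any match to CAGGTG or CANNTG on either strand in capitals. Snai1 lies at chr2:167537945-167538194 and Twist1 at chr12:33957421-33957670, both on the plus strand.
Snai1: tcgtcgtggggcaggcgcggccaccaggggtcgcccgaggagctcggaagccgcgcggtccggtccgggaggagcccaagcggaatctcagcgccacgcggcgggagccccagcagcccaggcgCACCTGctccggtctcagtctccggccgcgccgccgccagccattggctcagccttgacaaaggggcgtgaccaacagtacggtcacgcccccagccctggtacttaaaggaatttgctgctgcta
Twist1: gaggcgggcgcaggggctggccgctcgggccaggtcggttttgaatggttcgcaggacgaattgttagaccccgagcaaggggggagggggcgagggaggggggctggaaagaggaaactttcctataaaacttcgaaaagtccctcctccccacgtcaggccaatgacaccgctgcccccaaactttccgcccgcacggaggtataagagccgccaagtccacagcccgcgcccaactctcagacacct
The Snai1 window held 1 match, CACCTG, which reads CAGGTG on the other strand and begins 126 bases before the start. No match to either motif was found in the Twist1 window. CAGGTG is itself one form of CANNTG, and over 32851 RefSeq windows of this length 17.2% held CAGGTG and 66.2% held CANNTG. Windows were searched for 6 of the 10 genes only, and the other windows searched (Twist2, Prrx1, Vim and the 4 starts of Zeb2) held neither motif. A match describes these letters and is not a measured binding site.

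The control library held 11977 barcodes with a median of 10312 UMIs and the knockdown library 12853 with a median of 7496. After filters on detected genes, mitochondrial share and doublets, 10664 and 11451 cells were kept, and 28 kept barcodes occurred in both libraries. Doublets were removed by rank of the Scrublet score, which took every control cell above the threshold that Scrublet sets itself (1026) but not every such knockdown cell (2449). Tumour-like cells were those with at least 5000 UMIs, no UMI of the leukocyte antigen Ptprc and fewer than 5 Lyz2 UMIs per 10000, and numbered 4955 control and 5166 knockdown cells with medians of 18743 and 14768 UMIs. Macrophages had at least 10 UMIs of C1qa, C1qb and C1qc per 10000 (3862 and 4405 cells), and T cells at least 2 UMIs of Cd3d, Cd3e and Cd3g (650 and 524 cells). Cells that met more than 1 rule were left out. Gfpt2 had 205 control and 57 knockdown UMIs in tumour-like cells, or 1.99 and 0.653 UMIs per 1000000 UMIs of the same cells (CPM), and 143 of the 205 control UMIs lay in 1 cluster of 208 cells, led by Krt16. Without that cluster, an alternative chosen after seeing the data, Gfpt2 had 62 and 53 UMIs, or 0.633 CPM (0.485 to 0.811) and 0.616 CPM (0.462 to 0.806), so that no difference in the targeted gene was detectable in the other tumour-like cells. The library is called the knockdown library after its label.

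The lung carcinoma label was checked against epithelial markers first. In tumour-like cells the epithelial adhesion gene Epcam had 4 control and 7 knockdown UMIs, the keratin gene Krt8 had 9 and 8, and Krt18 had 1 and 0. Of 32 epithelial genes, 6 reached 50 UMIs over both libraries. The 9 fibroblast markers summed to 2608 CPM in control cells and 2938 CPM in knockdown cells, and 7 macrophage markers to 124 and 142 CPM. The female-specific RNA Xist stood at 2.62 and 3.41 CPM in tumour-like cells, against 497 and 394 CPM in macrophages. Most of the fibroblast sum came from Col3a1 (1412 CPM in control cells) and Dcn (1028 CPM), while Lum (0.699 CPM) and Thy1 (0.243 CPM) lay under 1 CPM. Other keratin genes were counted, with Krt14 at 13.6 and 24.02 CPM, Krt16 at 35.7 and 5.67 CPM and Krt7 at 114 and 86 UMIs. The cells are therefore called by their rule and given no cell type name.

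In tumour-like cells the mesenchymal factors were present in both libraries, Cdh1 was close to absent in both, and the differences between libraries were small. Snai1 was lower in the knockdown library, 6 genes (Snai2, Twist1, Twist2, Zeb1, Zeb2 and Prrx1) were higher by 0.14 to 0.23 on the log2 scale, and Cdh2 and Vim were nearly equal. None of the 10 genes passed a 1.5-fold difference, while 5.82% of the 14802 genes compared did. A gene was compared where it had at least 50 UMIs over both libraries. The range that the 2 intervals allow lay above 0 for 6 of the 10 genes, against 20.7% of all genes, and below 0 for 2, against 8.8%. A range excludes 0 more readily at higher counts, and these shares over all genes, here and in the lists below, were not matched for count. The median log2 ratio of knockdown over control was 0.14 for the 10 genes and 0.05 for all genes compared. Levels are compared within a gene only, since no gene lengths were used.

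**Figure D1:**
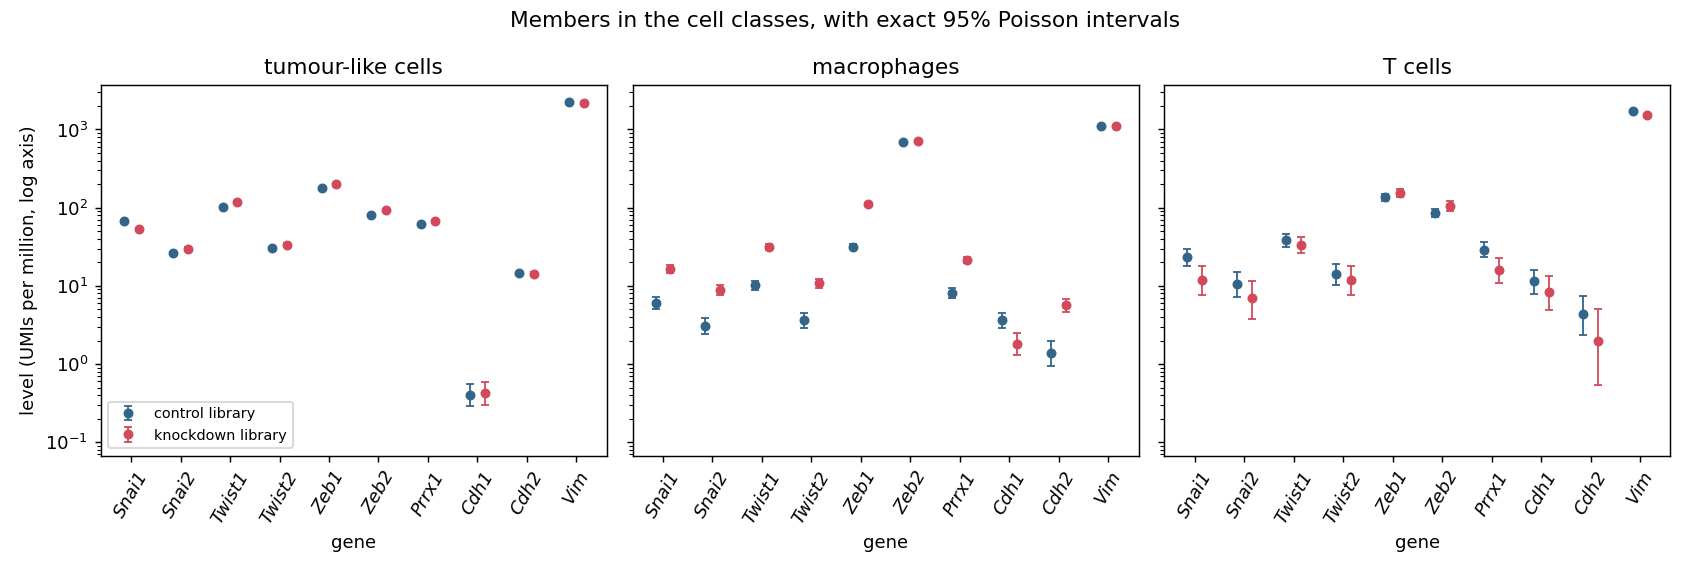
Level of each of the 10 genes in CPM (log axis) in tumour-like cells, macrophages and T cells, as points for the control and the knockdown library with exact 95% Poisson intervals. In tumour-like cells the pairs of points lie close together, in macrophages the knockdown points of 9 genes lie higher, 7 of them by more than 1.5-fold, and Cdh1 is lowest in tumour-like cells.

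The SNAIL genes differed in opposite directions. Snai1, whose protein represses Cdh1, stood at 67.2 CPM (65.6 to 68.8) in control cells and 54.1 CPM (52.5 to 55.6) in knockdown cells, from 6921 and 4720 UMIs. The log2 ratio was -0.31 with a range of -0.39 to -0.24, so the intervals did not overlap. Snai2, which encodes the related repressor SLUG, stood at 26.3 CPM (25.3 to 27.3) and 30.1 CPM (28.9 to 31.2), a log2 ratio of 0.19 (0.08 to 0.30). The knockdown library was thus the lower one for Snai1 and the higher one for Snai2.

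Both TWIST genes were higher in the knockdown library. Twist1 stood at 102 CPM (99.8 to 104) and 119 CPM (117 to 121), a log2 ratio of 0.23 (0.17 to 0.28), the highest ratio among the 10 genes in tumour-like cells. Twist2, a close relative of Twist1, stood at 30.4 CPM (29.4 to 31.5) and 33.6 CPM (32.4 to 34.9), a log2 ratio of 0.14 (0.04 to 0.25). The Twist2 intervals were separated by less than 1 CPM.

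The ZEB genes and Prrx1 showed similarly small differences. Zeb1 stood at 177 CPM (174 to 179) in control cells and 199 CPM (196 to 202) in knockdown cells, a log2 ratio of 0.17 (0.13 to 0.22). Zeb2 stood at 81.6 CPM (79.9 to 83.4) and 92.8 CPM (90.8 to 94.8), a log2 ratio of 0.18 (0.12 to 0.25). Both were higher in the knockdown library with intervals that did not overlap. Prrx1 stood at 61.6 CPM (60.1 to 63.1) and 67.6 CPM (65.9 to 69.4), a log2 ratio of 0.14 (0.06 to 0.21), but this sum hid opposite directions in different clusters, given below.

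The cadherins and vimentin were nearly level between the libraries. Cdh1 had 42 UMIs in 4955 control cells and 37 in 5166 knockdown cells, 0.408 CPM (0.294 to 0.551) and 0.424 CPM (0.298 to 0.584). Its log2 ratio of 0.05 had a range of -0.89 to 0.99, so a difference of nearly 2-fold in either direction was not detectable at this depth. Cdh2 stood at 14.5 CPM (13.8 to 15.3) and 14.3 CPM (13.5 to 15.1), a log2 ratio of -0.02 (-0.18 to 0.13), and its intervals overlapped. Vim, the most counted of the 10 genes, stood at 2251 CPM and 2201 CPM, a log2 ratio of -0.03 (-0.04 to -0.02).

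The number of the 7 factors with a UMI was counted in each tumour-like cell, where a UMI records detection and not a level. Every cell was thinned to 5000 UMIs to remove the difference in depth, which left out no cell. The median cell then had a UMI of 2 of the 7 factors in both libraries. At least 4 of the 7 were detected in 11.8% of control and 14.0% of knockdown cells, and none in 9.57% and 7.90%. The mean number was 2.03 and 2.19, and no background count over other genes was made.

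**Figure D2:**
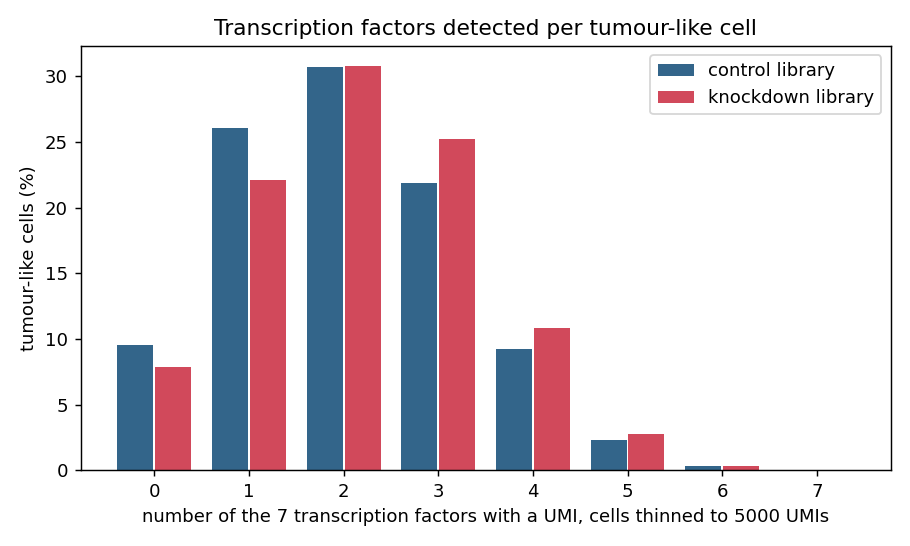
Share of tumour-like cells (%) by the number of the 7 transcription factors with at least 1 UMI, after thinning each cell to 5000 UMIs, as bars for the control and the knockdown library. Both distributions peak at 2 factors, and the knockdown bars are higher at 3 and 4.

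Shares of cells with a UMI followed the levels once depth was equal. At 5000 UMIs per cell, Snai1 was detected in 27.4% (26.1 to 28.7) of control and 23.7% (22.6 to 24.9) of knockdown tumour-like cells, and Twist1 in 38.7% (37.3 to 40.0) and 43.9% (42.5 to 45.3). Without thinning, the medians of 18743 and 14768 UMIs gave 62.7% and 52.1% for Snai1 and 79.3% and 78.0% for Twist1, so the unthinned Twist1 shares did not show its higher level. At 2000 UMIs, Snai1 was detected in 13.1% and 10.5% of tumour-like cells. The same shares were 0.782% and 0.580% in macrophages outside the mixed cluster described below, whose unthinned median depths were 5514 and 4118 UMIs.

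The tumour-like cells fell into 13 clusters, made without the 10 genes, and 9 had at least 50 cells in each library. Clusters 0 and 4 were led by S phase genes (H1f5, Rrm2) and mitotic genes (Cenpf, Cdc20). Cluster 1 was led by Ptn and Islr, cluster 2 by Cryab, Crabp2 and the hypoxia genes Ankrd37 and Ndrg1, cluster 3 by the matrix and complement genes Cilp, C3, Col1a1 and Postn, and cluster 5 by Ung and Tafa5. Cluster 6 was led by Mme and Aspn, cluster 7 by Whrn and Hivep3, and cluster 9 by Krt16 and Klk8. Cluster 8, led by Car6 and Gadd45a, had 261 control and 34 knockdown cells and was not compared. Also not compared were cluster 10, led by Hmga1 and ribosomal genes (61 and 37 cells), cluster 11, led by genes of antigen-presenting cells such as Ccl22 and H2-Aa (15 and 56 cells), and cluster 12, led by the endothelial genes Cdh5 and Plvap (5 and 11 cells). In cluster 11, 42.9% of the knockdown cells lay above the threshold that Scrublet sets itself.

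Snai1 was lower in the knockdown library in 9 of 9 clusters, and its range lay below 0 in 6 of them. Its level was highest in cluster 1, at 101 CPM in control cells and 82.9 CPM in knockdown cells. The control level was lowest in cluster 7, at 41.5 CPM, where the knockdown level was 34.5 CPM and the ranges overlapped. The lowest knockdown level was in cluster 9, 22.2 CPM from 29 UMIs in 68 cells against 48.6 CPM in the control library. Clusters 1, 3, 4 and 2 stood highest, in this order, in both libraries, with overlapping intervals between 4 and 2 in control cells and between 3 and 4 in knockdown cells.

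Twist1 was higher in the knockdown library in 9 of 9 clusters, with a range above 0 in 5. The offset was largest in cluster 6, at 99.8 CPM (91.4 to 109) and 144 CPM (135 to 154), a log2 ratio of 0.53. It was close to nothing in cluster 3, at 147 CPM in both libraries, and in cluster 9, at 119 and 120.3 CPM. Control levels differed by 1.56-fold between the highest and lowest cluster, compared with 2.44-fold for Snai1.

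Snai2 differed in both directions. It was higher in the knockdown library in 6 of 9 clusters, with its highest ratio in cluster 7, at 13.1 CPM (9.95 to 17.0) and 24.9 CPM (21.9 to 28.2). In cluster 9 it was lower, at 33.7 and 17.6 CPM from 169 and 23 UMIs. Twist2 was higher in 5 clusters and lower in 4, with a range above 0 in cluster 2 alone among the 9, at 26.3 and 33.1 CPM.

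Zeb1 marked the matrix-rich cluster 3 in both libraries, at 387 CPM (372 to 402) in control cells and 348 CPM (336 to 360) in knockdown cells. Its lowest levels were in the Krt16 cluster 9, at 84.9 and 98.8 CPM, so that control levels spanned 4.56-fold. It was lower in the knockdown library in clusters 0 and 3 and higher in the other 7. Zeb2 shared the control maximum of 146 CPM in cluster 3, where knockdown cells had 123 CPM, and the knockdown maximum was 132 CPM in cluster 6. Zeb2 was lowest in the S phase cluster 0, at 63.3 and 67.3 CPM.

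Prrx1 levels spanned 6.26-fold between clusters in the control library and 3.11-fold in the knockdown library. The control level was highest in cluster 9, at 228 CPM (215 to 241) from 1142 UMIs in 208 cells. The knockdown level there was 117 CPM (99.4 to 137) from 153 UMIs in 68 cells, a log2 ratio of -0.96. Gfpt2 stood at 28.5 and 3.07 CPM in the same cluster, from 143 and 4 UMIs. Cluster 9 made up 4.2% of control and 1.32% of knockdown tumour-like cells. In cluster 6 Prrx1 was next highest in control cells, at 125 CPM, and highest of all clusters compared in knockdown cells, at 141 CPM. Prrx1 was higher in the knockdown library in 7 of 9 clusters. Without the Krt16 cluster its log2 ratio over all tumour-like cells was 0.33, and with every cluster weighted equally it was -0.12.

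**Figure D3:**
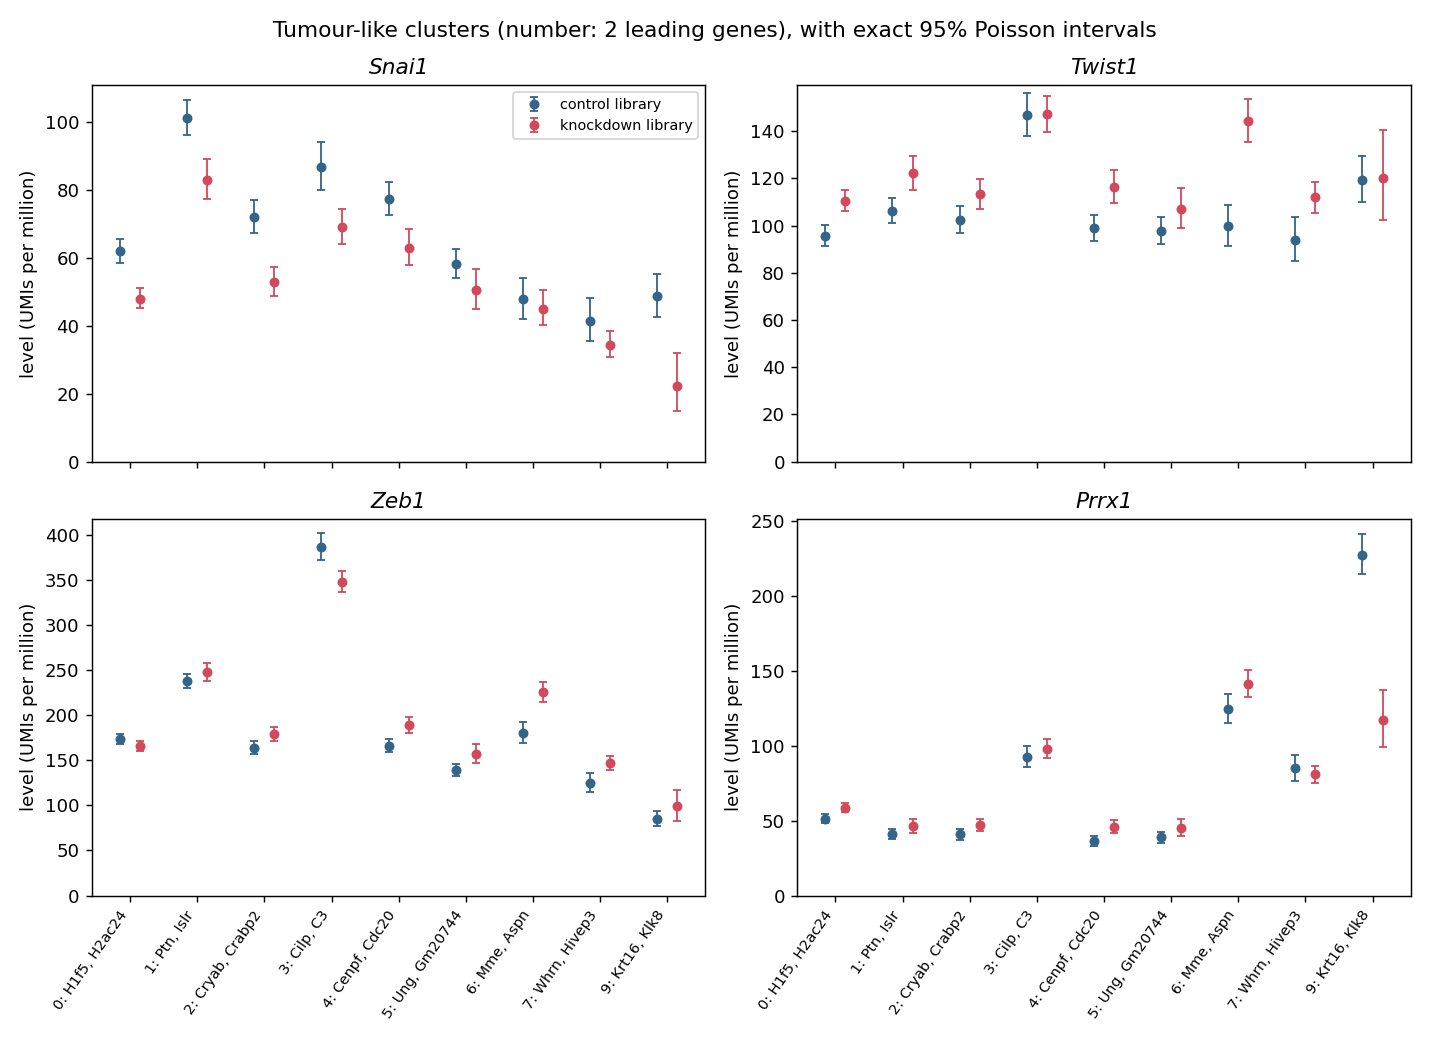
Levels of Snai1, Twist1, Zeb1 and Prrx1 in CPM in the 9 tumour-like clusters with at least 50 cells in each library, labelled by number and 2 leading genes, as points for each library with exact 95% Poisson intervals. By point value Snai1 is lower and Twist1 higher in the knockdown library in 9 of 9 clusters, with ranges that exclude 0 in 6 and 5, Zeb1 peaks in cluster 3, and Prrx1 is highest in control cluster 9.

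Vim was lowest in cluster 3, at 1432 CPM in control cells and 1508 CPM in knockdown cells, where Zeb1 was highest. Its control maximum was cluster 9, at 2828 CPM against 1979 CPM in the knockdown library. Over the 18 combinations of cluster and library, Pearson's r of log2(CPM + 1) was -0.76 between Vim and Zeb1 and 0.76 between Twist1 and Zeb2, and the highest value among the 9 genes with at least 500 UMIs was 0.81, between Twist2 and Vim. Over 21 combinations, with 3 included whose cluster had fewer than 50 cells in the other library, these values were -0.43, 0.89 and 0.42. They are a description of points that share 2 libraries and their depths. Cdh2 was highest in cluster 5, at 18.1 and 19.99 CPM, and its range excluded 0 only in cluster 2 among the 9, at 17.3 and 11.4 CPM. Cdh1 had too few UMIs for an order of clusters.

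For each gene with at least 500 UMIs, the 3 genes of the most similar profile over 21 combinations of cluster and library with at least 50 cells were taken from 10767 genes. Zeb1 had the closest, Disp1, Hs2st1 and Dse, with r of 0.98 each. For Zeb2 they were Ppm1h, Acbd5 and Fam234a, for Twist1 Tram2, Oas2 and Ppp2r3a, and for Cdh2 Osbpl3, Ttc7b and Lipt2. Snai1 was nearest to Copb1, Trpc4ap and Pxdn, Snai2 to Tmbim1, Ubxn4 and Uba6, and Twist2 to Urb2, Il15ra and an unnamed gene. Prrx1 was nearest to 2610316D01Rik, Serpinf1 and Mmp16, with r of 0.89 to 0.91, and Vim to Arhgdia, Ube2n and Rwdd1, with r of 0.84. In 3 of the 21 combinations (control clusters 8 and 10 and knockdown cluster 11) the other library had fewer than 50 cells of the cluster, and on the other 18 the r of Zeb1 with Disp1 was 0.96, those of Vim 0.85 to 0.91, and that of Twist2 with Urb2 went from 0.92 to 0.76.

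Other EMT factors were compared next. Of 29 on the list, 23 were compared in tumour-like cells, none passed 1.5-fold (background 5.82%), 8 had a range above 0 (background 20.7%) and 2 below (8.8%), and the median was 0.06 against 0.05 for all genes. The highest ratios were those of Klf4 (184 and 222 CPM, 0.26) and Sox9 (124 and 144 CPM, 0.22), and the lowest those of Foxc2 (7.45 and 6.61 CPM, -0.17) and the TGF-beta signal transducer Smad2 (51.2 and 47.9 CPM, -0.09). Of 19 other cadherin genes 9 were compared, and 1 passed 1.5-fold, the protocadherin Pcdh7 at 5.14 and 7.96 CPM. Pcdh9 stood at 37.0 and 49.7 CPM, and the lowest ratios were those of Pcdh10 (-0.07) and Cdh24 (-0.04).

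Catenins, plakins and intermediate filament genes were compared in the same way. Of 13 catenin and junction plakin genes 12 were compared, with a median of 0.06. The 2 past 1.5-fold, against 5.82% of all genes, were thinly counted, namely the plakophilin gene Pkp2 with 20 and 35 UMIs and Ctnna3 with 63 and 34, and both ranges included 0. The actin linker Vcl stood at 95.7 and 110.2 CPM and Pkp3 at 0.806 and 0.687 CPM. Of 11 intermediate filament genes 7 were compared and 2 passed 1.5-fold (background 5.82%), with Des, the muscle filament gene desmin, at 1.42 and 2.31 CPM and Prph at 26 and 36 UMIs. The lamin gene Lmna (-0.04) and Plec (-0.01) had the lowest ratios of that list. Among epithelial genes, none of the 6 compared passed 1.5-fold, with Spint2 (0.38), Spint1 (0.14), Krt7 (-0.17) and Grhl1 (-0.20) at the ends.

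Mesenchymal effector genes, such as matrix and contractile genes, formed a further list. All 30 on the list were compared, 5 were more than 1.5-fold higher in the knockdown library (background 4.42%) and 1 lower (background 1.41%), 21 had a range above 0 (20.7%) and 3 below (8.8%), and the median was 0.24 against 0.05 for all genes. The collagen crosslinking enzyme Lox had the highest ratio, from 12 and 39 UMIs, and the smooth muscle actin gene Acta2 stood at 1.35 and 3.87 CPM, a log2 ratio of 1.52 (1.12 to 1.92). The gelatinase gene Mmp2 stood at 56.8 and 30.3 CPM, a log2 ratio of -0.90 (-0.997 to -0.813), and S100a4 was next lowest at -0.11. Of 6 pericyte markers in the same cells, 5 control and 4 knockdown levels lay under 1 CPM, and the list summed to 48.5 and 47.5 CPM, nearly all from Cspg4. Rgs5 had 34 and 122 UMIs, Higd1b 3 and 36, Abcc9 9 and 30 and Kcnj8 6 and 21. The libraries also held different shares of the clusters, with the matrix cluster 3 at 10.6% and 15.4% of tumour-like cells, cluster 7 at 3.05% and 9.33% and cluster 8 at 5.27% and 0.658%. The part of either in the effector differences was not tested.

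In macrophages the summed levels differed more between the libraries, and Dcn and Hmga2, which the tumour-like cells express, differed beside them. Of the 10 genes, 8 differed by more than 1.5-fold (background over all genes 15.7%), 7 of them higher in the knockdown library (13.8%) and Cdh1 lower (1.94%). The range lay above 0 for 8 genes (28%) and below 0 for 1 (10.2%), with a median log2 ratio of 1.48 against 0.12 for the 13057 genes compared. Snai1 stood at 6.104 and 16.5 CPM, Twist1 at 10.2 and 31.5 CPM, Zeb1 at 31.5 and 111 CPM and Prrx1 at 8.15 and 21.4 CPM. Dcn, a matrix gene on the fibroblast list, stood at 121 and 271 CPM and Hmga2 at 29.1 and 84.0 CPM, so that Hmga2 rested at 13.2% and 38.5% of its tumour-like level. The corresponding shares were 11.8% and 25.1% for Dcn, 9.08% and 30.6% for Snai1 and 13.2% and 31.6% for Prrx1. For Zeb1 they were higher, at 17.8% and 55.6%, and for Zeb2 843% and 769%. The 9 fibroblast markers summed to 344 and 843 CPM. With all deposited barcodes the number past 1.5-fold and the median of the 10 genes were both lower, as given below. The median was also lower with the Scrublet threshold.

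One of 9 macrophage clusters carried most of the differences in macrophages. Cluster 2, led by Gm16001, Dcn and Ebf1, held 263 control and 1204 knockdown cells, with median depths of 1329 and 3378 UMIs. Of its knockdown cells, 46.3% lay above the threshold that Scrublet sets itself, against 0.296% in cluster 0, 34.1% in cluster 7 (44 cells) and 12.5% in cluster 8 (16 cells). Control cells cannot be compared on this share, since the rank filter had removed every control cell above the threshold. Without cluster 2, an alternative chosen after seeing the data, the median of the 9 genes compared was 0.08. Snai1 then stood at 3.08 and 3.23 CPM, Prrx1 at 2.98 and 3.16 CPM and Dcn at 32.1 and 35.4 CPM, and the intervals of each pair overlapped. Twist1 stood at 3.65 and 5.82 CPM, a log2 ratio of 0.67 (0.01 to 1.33), and Zeb1 at 20.5 and 27.6 CPM, a log2 ratio of 0.43 (0.15 to 0.72). Leaving out every macrophage with a UMI of Dcn or Hmga2 instead gave ratios of 0.34 for Snai1, 1.01 for Twist1 and 0.60 for Zeb1.

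**Figure D4:**
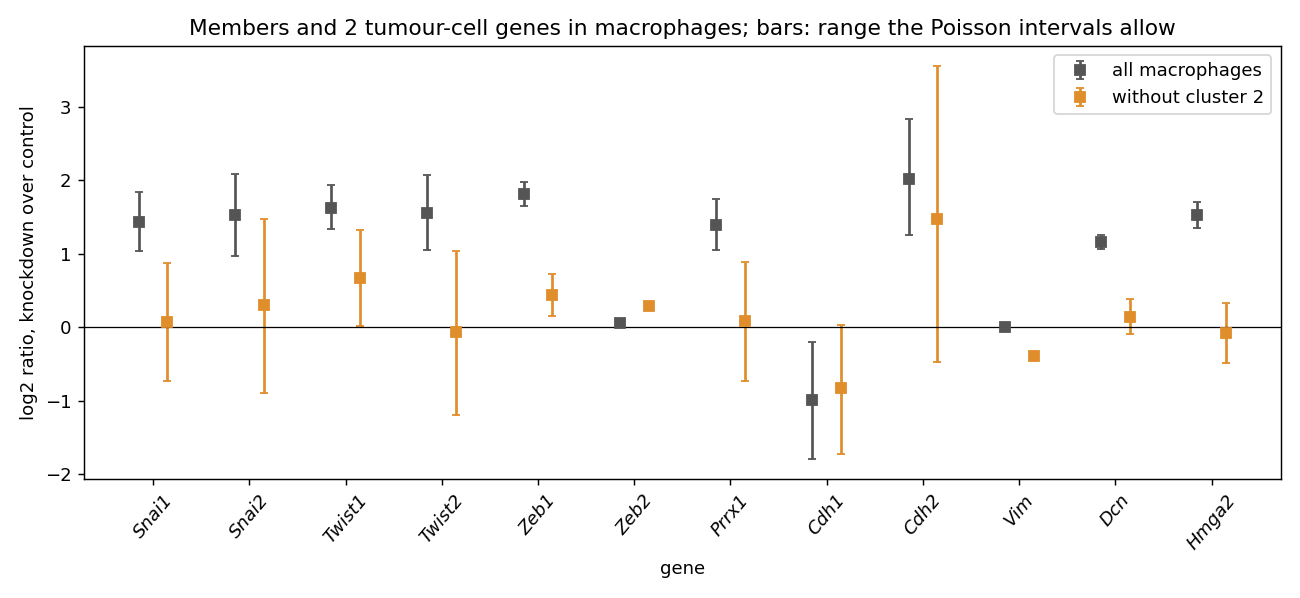
Log2 ratio of knockdown over control for the 10 genes and for Dcn and Hmga2, in all macrophages and without macrophage cluster 2, with the range that the Poisson intervals allow. Without cluster 2 the ratios of Snai1, Prrx1, Dcn and Hmga2 lie near 0, Zeb2 lies above 0 and Vim below.

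Zeb2 and Vim, which macrophages express themselves, differed between the libraries once cluster 2 was left out. Over all macrophages Zeb2 stood at 688 and 714 CPM, a log2 ratio of 0.05 that turned to -0.060 under TMM scaling, which moved all macrophage ratios by -0.11. Without cluster 2 it stood at 738 CPM (726 to 749) and 899 CPM (883 to 915), a log2 ratio of 0.29 (0.24 to 0.33). In these cells the log2 ratio was 0.36 (0.29 to 0.43) for Ptprc and -0.02 (-0.08 to 0.04) for Xist. No median over all genes was computed without cluster 2, so the ratios of Zeb2 and Vim there have no background beside them. Of the 6 macrophage clusters with at least 50 cells in each library, Zeb2 was higher in the knockdown library in 6, with a range above 0 in 5. It was highest in cluster 0, led by the interferon genes Ifnb1 and Ifit2, at 874 and 971 CPM, and stood at 643 and 816 CPM in cluster 1, led by F13a1 and Spp1. Cluster 2 had the lowest level, at 206 and 339 CPM. In the macrophages outside cluster 2, Zeb2 was detected in 70.5% (68.8 to 72.0) of control and 76.5% (74.8 to 78.1) of knockdown cells thinned to 2000 UMIs, with 400 and 613 shallower cells left out, and in 88.9% and 86.7% unthinned.

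Vim stood at 1098 and 1103 CPM over all macrophages and at 998 and 762 CPM without cluster 2, a log2 ratio of -0.39 (-0.44 to -0.34). It was lower in the knockdown library in 6 of 6 clusters, with a range below 0 in 5. Its levels ran from 478 and 404 CPM in cluster 4 to 2452 and 1852 CPM in cluster 3, led by Hspb1, Mmp12 and the hypoxia gene Hilpda. Zeb2 and Vim thus differed in opposite directions by point value in each of these 6 clusters.

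**Figure D5:**
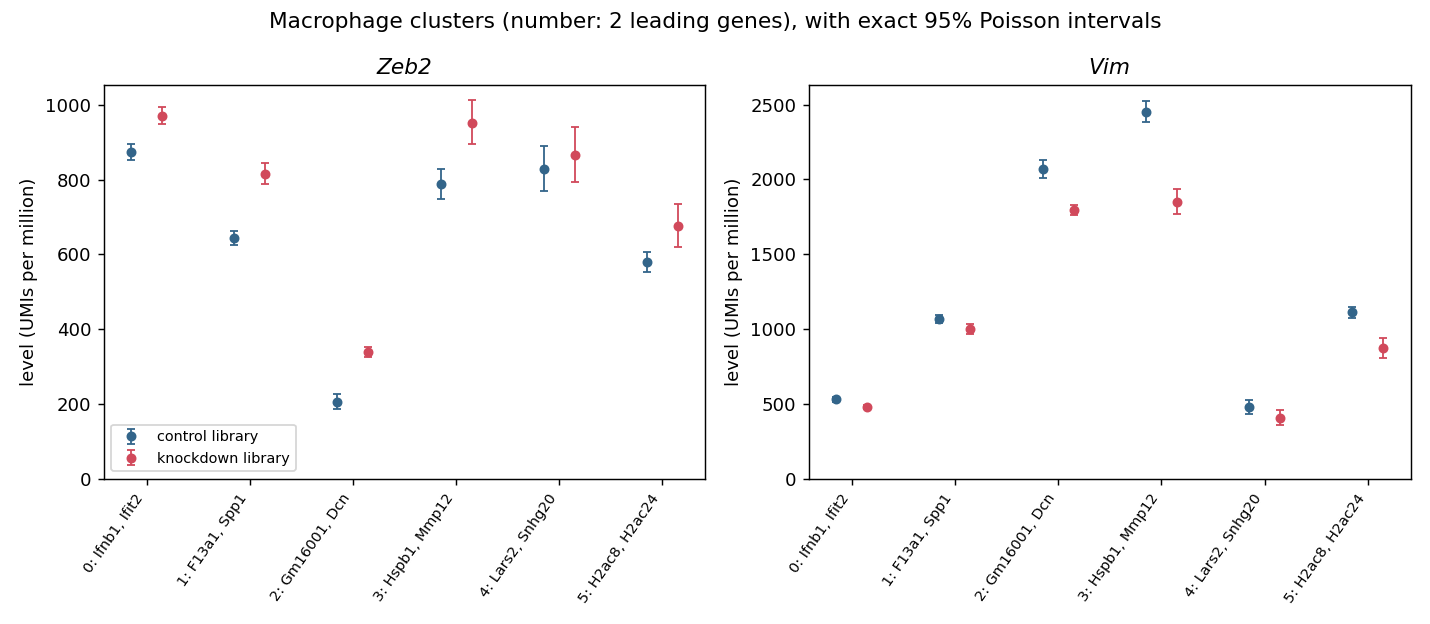
Levels of Zeb2 and Vim in CPM in the 6 macrophage clusters with at least 50 cells in each library, labelled by number and 2 leading genes, as points for each library with exact 95% Poisson intervals. By point value Zeb2 is higher and Vim lower in the knockdown library in 6 of 6 clusters, and cluster 2 has the lowest Zeb2.

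Cdh1 was counted at a low level in macrophages, at 3.62 CPM (2.88 to 4.49) in control cells and 1.83 CPM (1.29 to 2.51) in knockdown cells, from 83 and 38 UMIs, a log2 ratio of -0.99 (-1.80 to -0.20). These levels were 887% and 431% of those in tumour-like cells. Without cluster 2 it stood at 3.70 and 2.08 CPM with a range of -1.73 to 0.03. Its highest level was in cluster 6, led by the monocyte genes S100a8, Ly6c2 and Plac8, at 21.5 and 24.7 CPM from 10 and 4 UMIs in 103 and 40 cells. The 40 knockdown cells were too few for that cluster to be compared. How many of the Cdh1 UMIs in macrophages came from RNA outside the cells was not estimated.

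In T cells 8 of the 10 genes were compared, and 2 differed by more than 1.5-fold (background over all genes 7.38%), both lower in the knockdown library (3.6%) and none higher (3.78%). The range lay below 0 for 3 genes (3.1%), namely Snai1, Prrx1 and Vim, and above 0 for none (4.02%). Snai1 stood at 23.3 and 11.9 CPM from 69 and 24 UMIs and Prrx1 at 29.1 and 15.9 CPM from 86 and 32 UMIs. The median log2 ratio was -0.22, against 0.03 for the 8833 genes compared. Dcn stood at 365 and 138 CPM in the same cells, which was 35.5% and 12.8% of its tumour-like level. Among T cells with no UMI of Dcn or Hmga2 (513 and 441 cells), Snai1 had 14 and 5 UMIs and Prrx1 3 and 3. The part of RNA from Dcn-expressing cells in the T cell differences was not tested beyond these values. With all deposited barcodes no gene of the 10 passed 1.5-fold in T cells. With the Scrublet threshold more of them did and the median was lower, as given below.

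The ZEB factors, which lymphocytes express, were also measured in the T cells with no UMI of Dcn or Hmga2. Zeb1 stood at 136 and 154 CPM in all T cells and at 135 and 145 CPM in those without Dcn and Hmga2. Zeb2 stood at 85.2 and 106 CPM and at 84.8 and 99.7 CPM. Their ranges included 0 in all T cells, at -0.12 to 0.49 and -0.07 to 0.69. Zeb1 was detected in 21.2% and 21.5% of these T cells thinned to 2000 UMIs, and in 3.75% and 4.79% of macrophages outside cluster 2. The unthinned Zeb1 shares were 28.5% and 27.0% in the same T cells, with median depths of 2567 and 2367 UMIs, and 10.4% and 10.3% in macrophages outside cluster 2. Vim stood at 1737 and 1527 CPM in all T cells, a log2 ratio of -0.19 (-0.28 to -0.10).

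The lists fixed for the tumour-like cells gave these counts in the immune classes, with cluster 2 and all T cells included. In macrophages more than 1.5-fold higher in the knockdown library were 11 of 23 other EMT factors, 5 of 5 other cadherins, 1 of 9 catenin and plakin genes, 16 of 25 effectors, 1 of 8 epithelial and 1 of 5 intermediate filament genes. Lower were 1 epithelial and 1 intermediate filament gene. Over all genes 13.8% were higher and 1.94% lower in macrophages, so that the lists with 1 such gene gave no count to set apart from that background. Sox9 had 269 and 1198 UMIs there. In T cells 3 of 18 other EMT factors and 3 of 20 effectors were lower and 1 effector was higher, while no gene of the other lists passed 1.5-fold. The shares of all genes there were 3.6% lower and 3.78% higher. Mmp2 had 98 and 14 UMIs in T cells.

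Cdh1 levels in lymphocytes and in a small group with dendritic cell markers lay above those of the tumour-like cells. T cells without Dcn and Hmga2 held 27 and 14 Cdh1 UMIs, or 17.0 and 11.3 CPM. At 2000 UMIs per cell, Cdh1 was detected in 2.12% (1.02 to 3.87) of control and 2.36% (1.02 to 4.597) of knockdown T cells, against 0.101% (0.033 to 0.235) and 0.097% (0.031 to 0.226) of tumour-like cells. The unthinned shares were 4.15% and 2.67% in T cells, with median depths of 2775 and 2523 UMIs, and 0.827% and 0.677% in tumour-like cells. NK cells without Dcn and Hmga2 (26 and 28 cells) had 44.1 and 40.9 CPM from 7 and 6 UMIs, and over all NK cells (35 and 36 cells) Cdh1 stood at 48.5 and 29.6 CPM. Cells outside the macrophages and T cells with at least 2 UMIs of the dendritic markers Flt3, Zbtb46, Clec9a, Xcr1 and Cd209a numbered 91 and 98. They held Dcn at 1110 and 1176 CPM, close to its tumour-like level, and Ptprc at 69.0 and 64.8 CPM, so they are given no cell type name, and Cdh1 stood there at 7.53 and 8.99 CPM. The 32 and 22 of them without Dcn and Hmga2 held Ptprc at 394 and 454 CPM and Cdh1 at 31.5 and 33.9 CPM from 8 and 5 UMIs. No difference in Cdh1 between libraries was detectable in these small groups.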

How the data were processed

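Single-cell RNA was measured in 1 control and 1 knockdown tumour. The deposited files hold raw UMI counts, as unscaled whole numbers for each gene in each cell. Cell Ranger made them, version 6.1.0 per the file headers and 3.1.0 per the submitters' processing notes. The genome build, the annotation, the strand setting and any cell filter by the authors are not given in the sources used here. Antisense genes overlap Twist2, Zeb1, Zeb2, Prrx1 and Cdh2 in GENCODE vM21, so their reads cannot be told apart if strand was ignored.

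Barcodes with fewer than 200 genes or over 20% mitochondrial UMIs were left out, and then the cells of highest Scrublet score, in proportion to library size (1147 control and 1321 knockdown cells). Classes followed marker counts, read as UMIs for the Cd3 genes. CPM is the summed UMIs of a gene over all UMIs of the same cells, and log2 ratios are knockdown over control. A gene was compared at 50 or more UMIs over both libraries. The tumour-like cells and the macrophages were clustered with scanpy 1.11.5 and Leiden (leidenalg 0.10.2) on 2000 variable genes without the 10 genes, Gfpt2, Xist and mitochondrial genes, with 30 components, 15 neighbours and resolutions of 1 and 0.5. TMM factors came from edgeR 4.0.16, which was used for scaling only. The ratio and interval code was tested on simulated data.

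The genes named were the 10 genes, of each list the 2 highest and 2 lowest ratios in tumour-like cells, and per gene the 3 of most similar profile. The 10 genes and the lists were chosen with earlier results of these data known. Alternatives changed the doublet and cell filters, scaling, cell weights, depth, class rules and low-count filter. Promoters are RefSeq sequences of GRCm38.p6. No promoter of Snai2, Zeb1, Cdh1 or Cdh2 was used here.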

Additional observations from a re-analysis of the deposited data

Results flagged for a closer look

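Snai1 differed between the libraries in opposite directions in different cell classes. Its log2 ratio of knockdown over control was -0.31 in tumour-like cells, 1.44 in macrophages and -0.97 in T cells. Prrx1 did so too, with 0.14 in tumour-like cells, 1.39 in macrophages and -0.87 in T cells. With 1 library per group the difference between classes was not tested. Dcn, a gene of the tumour-like cells, had 1.16 in macrophages and -1.40 in T cells, and without macrophage cluster 2 the macrophage ratios were 0.07 for Snai1 and 0.08 for Prrx1.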

How the results depend on the processing

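No paired analysis was possible because each group had 1 library, and no library could be left out. In tumour-like cells 103 of 120 values stayed within their intervals, 16 moved and 1 reversed, in macrophages 45 of 100 stayed, 50 moved and 5 reversed, and in T cells 82 of 90 stayed, 7 moved and 1 reversed. In tumour-like cells 1 gene (Cdh1, 1.52) passed 1.5-fold when cells were thinned to 2000 UMIs, while another random draw at that depth detected it in 0.101% and 0.097% of cells, and Prrx1 turned to -0.12 with every cluster weighted equally. The macrophage median was 0.48 with all deposited barcodes, 0.58 with the Scrublet threshold and 0.91 with every cell weighted equally. Alternatives chosen after seeing the data gave 0.34 without cells with Dcn or Hmga2, 0.084 without cluster 2 and 0.055 with the other clusters also weighted equally. The number past 1.5-fold in macrophages was 3 with all barcodes, 3 without Dcn or Hmga2, and 2 and 4 without cluster 2. Zeb2 in macrophages turned to -0.060 under TMM and -0.064 under median-of-ratios scaling and to -0.013 with equal cell weights, and Twist2 to -0.067 and -0.70 without cluster 2. Scaling moved all macrophage ratios by -0.11 and -0.12. The T cell median was -1.07 with the Scrublet threshold. The T cell number was 0 with all barcodes, with a filter of 200 UMIs and without Dcn or Hmga2, 4 with the Scrublet threshold and with no low-count filter, and 1 with cells of several classes kept. Prrx1 in T cells turned to 0.37 without Dcn or Hmga2, from 3 and 3 UMIs. The causes of these moves were not tested. No share over all genes was computed for the alternatives, so their numbers past 1.5-fold have no background beside them. Counts of Cdh1 limit every statement on it.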

Other observations

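Tumour-like cells with at least 2 Xist UMIs (28 control and 30 knockdown cells) were few, with median depths of 16790 and 10990.5 UMIs. Zeb2 stood at 87.7 CPM (65.7 to 115) in control cells and 247 CPM (198 to 305) in knockdown cells, and Zeb1 at 169 and 318 CPM. Snai1 stood at 62.9 and 37.0 CPM from 38 and 13 UMIs, with overlapping intervals. In the same cells the endothelial gene Pecam1 stood at 126 and 267 CPM, a log2 ratio of 1.09 (0.46 to 1.72), and Dcn at 802 and 1499 CPM. Xist stood at 149 and 321 CPM, but the cells were chosen by Xist, and 2 UMIs weigh more in shallower cells. The part of these genes in the ZEB values was not tested. Cells with at least 2 UMIs of the endothelial genes Pecam1, Cdh5 and Kdr and without Ptprc (18 and 26 cells) held Zeb1 at 185 and 310.0 CPM, with a range of the log2 ratio of -0.013 to 1.54. Prrx1 had 2 and 29 UMIs there, a log2 ratio of 2.95 (0.52 to 6.52), and Dcn stood at 1663 and 690.5 CPM. Among T cells with Cd8a or Cd8b1 and no Cd4 (415 and 339 cells), Cdh1 had 25 and 8 UMIs and Epcam 21 and 5, with ranges of the log2 ratio that included 0.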
